A study of Mus musculus with 68 samples.

Results

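The genes described here drive and mark cell division: 54 genes of S phase and mitosis, taken by symbol from a fixed list, all of which were present among the 23420 gene symbols of the count table. By role, 18 act in DNA replication and its supply, 33 in mitosis and chromosome condensation, and 3 are the G1 cyclins Ccnd1, Ccne1 and Ccne2. The list was not chosen on the measured values of these samples by its rule, but it was drawn up with earlier results of the same data known.

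The samples were cartilage of the mouse growth plate, cut by laser from snap-frozen bone sections into the resting, hypertrophic and proliferative zones, and turned into SMART-seq2 libraries directly from lysed cells. The mice were of mixed background at postnatal day 28 (P28), day 3 (P3, 1 animal) or day 2 (P2), and the labels name no allele, transgene or drug for any group. Sections were fixed in xylene (P28 only, 14 libraries) or ethanol (all ages). The labels of P28 animal B and P2 animal D name more than 1 animal, so these may be pools, and each is counted as 1 animal here.

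Of 51 ethanol libraries at P28 and P2, the 26 with at least 100000 counts were summed by animal and zone into 21 sums, which carry all the tests. At P28 these were 3 resting, 3 hypertrophic and 3 proliferative sums, each from animals A, B and D. At P2 they were 4 resting sums (animals A, D, F and G), 4 hypertrophic sums (A, C, D and G) and 4 proliferative sums (A, D, E and G), so that 3 animals had both members of every pair of zones at each age. The sums held 108601 to 260199 counts in the P28 resting zone, 121510 to 2132569 in the P28 hypertrophic zone and 339329 to 915624 in the P28 proliferative zone. At P2 they held 203304 to 3347722 counts in the resting, 252800 to 2583378 in the hypertrophic and 122788 to 2309989 in the proliferative zone. Levels are counts per 1000000 counts after TMM scaling (CPM) unless another scale is named.

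Several libraries stood apart from their labels. The library of the P2 resting zone from animal G held 128 counts of Xist, the RNA that silences an X chromosome in females, beside 747 Y-linked counts, while the proliferative library of that animal held 0 Xist and 1071 Y-linked counts. For P28 animal D, proliferative replicate 9 held 267 Xist and 0 Y-linked counts, against 179 Y-linked counts and 0 Xist in hypertrophic replicate 9 and 76 Y-linked counts and 0 Xist in the resting library. The P3 proliferative library held 355 Xist and 311 Y-linked counts. Calls that rest on P2 animal G or on P28 proliferative replicate 9 are also given without them, while the P3 zones have 1 library each and none to put in place of this one. Large parts of some sums fell on Rn45s, the precursor of ribosomal RNA, and on the symbols Lars2 and Glra2: the hypertrophic sum of P2 animal C had 20032 counts outside these 3 symbols, and that of P2 animal A had 44414. Counts outside these symbols are called the remaining counts. Of the cartilage markers in the table, 8 or 9 of 9 were found in every sum.

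Cell division genes are transcribed in waves. The licensing of replication origins and the supply of deoxynucleotides depend on genes switched on by E2F factors around the start of S phase. Cyclins, kinases, kinesins and condensins of mitosis are transcribed later, often from promoters that hold elements known as CHR and CCAAT boxes. In a growth plate, the resting zone holds slowly cycling progenitors, the proliferative zone holds columns of dividing chondrocytes, and the hypertrophic zone holds cells that have left the cell cycle, enlarge and mineralise their matrix. D-type cyclins open G1, the kinase Cdk1 with cyclins A and B drives mitosis, and the inhibitors p57 (Cdkn1c) and p21 (Cdkn1a) block cyclin-dependent kinases.

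These elements can be read in the promoters, shown here because the S phase and mitosis genes are set against each other in all that follows. RefSeq windows (GRCm38.p6) of 300 bases, from 250 before to 50 after the start of transcription, matched 44 of the 54 genes. Mcm4, Gins2, Ccnd1, Ccne2, Ccna2, Aurkb, Tpx2, Stmn1, Kif20a and Smc4 were not matched. The 200 bases before the start are printed 5′ to 3′ on the gene's strand, with capitals for the CHR core TTTGAA, for CCAAT and for the E2F-type octamers TTTCCCGC, TTTCGCGC, TTTGCCGC and TTTGGCGC, each on either strand.
Mki67, chr7:135716380-135716579, minus strand: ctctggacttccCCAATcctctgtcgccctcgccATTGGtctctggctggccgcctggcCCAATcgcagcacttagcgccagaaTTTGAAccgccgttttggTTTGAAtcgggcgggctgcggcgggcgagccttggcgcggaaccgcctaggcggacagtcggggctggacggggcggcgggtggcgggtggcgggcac
Top2a, chr11:99024190-99024389, minus strand: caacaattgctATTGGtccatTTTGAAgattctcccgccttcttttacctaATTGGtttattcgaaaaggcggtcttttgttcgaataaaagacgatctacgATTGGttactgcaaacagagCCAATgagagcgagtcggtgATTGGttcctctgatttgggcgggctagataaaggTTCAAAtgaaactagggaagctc
Cdk1, chr10:69352913-69353112, minus strand: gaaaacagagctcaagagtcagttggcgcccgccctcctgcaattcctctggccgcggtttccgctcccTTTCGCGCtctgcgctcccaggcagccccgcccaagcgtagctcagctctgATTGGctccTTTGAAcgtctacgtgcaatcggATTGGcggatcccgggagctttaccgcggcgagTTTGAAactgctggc
Mcm6, chr1:128359706-128359905, minus strand: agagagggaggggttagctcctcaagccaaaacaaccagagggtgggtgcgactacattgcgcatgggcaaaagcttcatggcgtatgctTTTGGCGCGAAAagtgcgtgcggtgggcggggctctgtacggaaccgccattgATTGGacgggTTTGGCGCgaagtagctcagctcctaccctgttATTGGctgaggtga
Mcm5, chr8:75109309-75109508, plus strand: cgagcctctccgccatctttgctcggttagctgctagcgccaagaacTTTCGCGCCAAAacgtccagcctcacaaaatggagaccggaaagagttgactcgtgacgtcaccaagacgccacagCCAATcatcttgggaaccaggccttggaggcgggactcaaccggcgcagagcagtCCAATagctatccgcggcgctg
Hells, chr19:38930790-38930989, plus strand: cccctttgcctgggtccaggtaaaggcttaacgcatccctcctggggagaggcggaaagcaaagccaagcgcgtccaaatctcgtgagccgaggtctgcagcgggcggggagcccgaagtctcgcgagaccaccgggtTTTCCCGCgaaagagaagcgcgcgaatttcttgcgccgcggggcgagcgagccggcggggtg
Mki67 and Top2a, both of mitosis and chromosome structure, held CHR cores and CCAAT and no E2F-type octamer, Cdk1 held all 3 kinds, and the replication genes Mcm6, Mcm5 and Hells held E2F-type octamers and no CHR core. In Mcm6 and Mcm5 an octamer on one strand overlaps an octamer on the other. Over the whole 300 bases, the CHR core was found in 22 of 27 mitosis genes (81.5%) and in 1 of 16 S phase genes (Mcm2, 6.25%), beside 20.2% of 27025 genes with a window, counting a gene once if any of its windows held it. CCAAT was found in 24 of 27 mitosis genes (88.9%) and 11 of 16 S phase genes (68.8%), beside 41.1% of all genes. An E2F-type octamer was found in 3 of 27 mitosis genes (11.1%) and 9 of 16 S phase genes (56.2%), beside 2.6% of all genes. Of the 9 mitosis genes that were lower in the hypertrophic than in the proliferative zone at P2, 8 were matched, and the CHR core was found in all of these but Birc5. With the core in 22 of 27 mitosis genes, this does not set the called genes apart from their class. A match of letters is a description of the sequence and was not tied to a factor.

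The summed level of the 33 mitosis genes was low in the hypertrophic zone at both ages. At P28 it was 1344, 1334 and 863 CPM in the resting sums of animals A, B and D, 209, 368 and 128 CPM in the hypertrophic sums, and 863, 1089 and 789 CPM in the proliferative sums. The hypertrophic values lay below all others at P28, and the resting and proliferative values overlapped. At P2 the mitosis sum was 1534, 973, 2896 and 1359 CPM in resting sums, 512, 101, 83.8 and 100 CPM in hypertrophic sums, and 1388, 1391, 1919 and 2108 CPM in proliferative sums. Again the hypertrophic group did not overlap the others, with animal A at the top of it. The sum of proliferative animal E is not a broad signal, since 249 of its 283 mitosis counts (88.0%) came from the condensin subunit gene Ncapg. The S phase sum separated the zones less: at P2 it was 344 to 523 CPM in resting, 56.9 to 260 CPM in hypertrophic and 123 to 522 CPM in proliferative sums, and at P28 it was 132 to 385, 37.0 to 156 and 153 to 400 CPM in these zones. Most S phase counts of P2 hypertrophic animals G and D were of Mcm6 (234 of 263 and 29 of 42). Of those in P2 hypertrophic animal C, 14 of 18 were of Rrm2, so these S phase sums are not a broad signal. In sums of many captured cells, fewer dividing cells and less RNA per cell cannot be told apart.

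**Figure D1:**
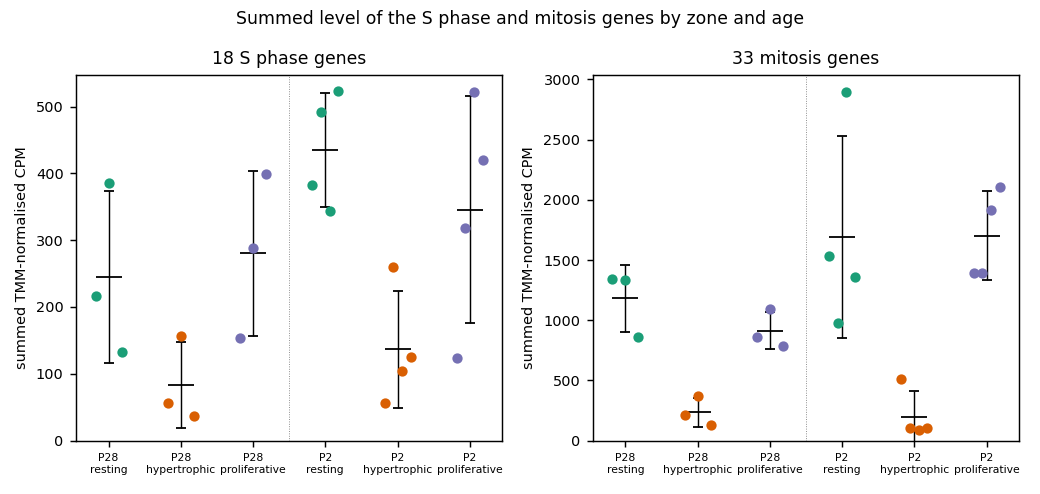
Summed TMM-normalised CPM of the 18 S phase genes (left) and 33 mitosis genes (right) by age and zone, each point 1 sum of an animal and zone, with the mean and 1 SD. The hypertrophic sums of the mitosis genes, at 128 to 368 CPM at P28 and 83.8 to 512 CPM at P2, lie below every resting and proliferative sum of their age.

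At P2, 9 mitosis genes were lower in the hypertrophic zone than in the proliferative zone, and no cell cycle gene was higher. They span the machinery of division: the proliferation marker Mki67, the spindle organiser Aspm, the kinase Cdk1, the chromosomal passenger survivin (Birc5), cyclin A2 (Ccna2), the central spindle proteins Kif23 and Prc1, the kinetochore protein Cenpf and the DNA topoisomerase Top2a. Of the 54 genes, 45 had enough counts to be tested, and 9 of these (0 higher, 9 lower) passed at an adjusted p of 0.05 by edgeR's quasi-likelihood test with the animal as block and Benjamini-Hochberg adjustment over 6958 genes, of which 1.14% were higher and 1.18% lower. All 9 were among the 28 tested mitosis genes, and 0 of the 15 tested S phase genes passed, although 9 of these had an unadjusted p under 0.05. The median log2 change of the tested cell cycle genes was -4.92, or -4.59 with the 17 genes at 0 hypertrophic counts set at their bound, beside -0.36 over all genes tested. By role the medians were close, at -5.29 for S phase genes (13 of 15 below zero) and -5.32 for mitosis genes (26 of 28). With genes at 0 set at their bound they were -4.12 and -4.60. A gene enters the test by its level in any zone, so these medians describe the tested genes and not all 54.

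In P2 hypertrophic sums, 23 of the 54 genes had no count at all, among them Mcm2, Mcm3, Mcm4 and Mcm5 of the replicative helicase, the thymidine pathway genes Tyms and Tk1, and 14 of the 33 mitosis genes. Of the 45 tested genes 17 (37.8%) were at 0 there, beside 5.3% of all genes tested. A gene at 0 there was tested only through its level in other groups. The 6958 genes were not matched to the 45 for level, so the shares are a description. No cell cycle gene was at 0 throughout the P2 proliferative or P2 resting sums.

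Mki67, at chromosome 7 from 135689784 to 135716361 on the minus strand (GRCm38), encodes a protein that coats mitotic chromosomes and is found in cycling cells. It had 0 counts in all 4 P2 hypertrophic sums, against 321, 82.0, 6.78 and 309 CPM in the proliferative sums of animals A, D, E and G. Every proliferative sum was above every hypertrophic one, although animal E was close to 0. With a floor of 3 counts over the hypertrophic group, Mki67 was at least 224-fold lower there (adjusted p = 3.89e-06, lower in 3 of 3 animals with both zones). This call held in all 9 fits with 1 animal left out, with an adjusted p of at most 0.0388. Of these fits, only those without P2 animal A, D or G take sums out of the fitted change, so the others could hardly put it to the test.

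Top2a, which untangles replicated chromosomes, had 9.49, 0, 0 and 0 CPM in the hypertrophic sums of animals A, C, D and G, against 41.0, 90.3, 27.1 and 145 CPM in proliferative sums. The value in animal A was a single count, and the groups did not overlap. The log2 change was -6.89 ± 1.74 (SE, adjusted p = 0.00766), with a pooled ratio of 0.003 and a 95% counting interval of 0.0001 to 0.0166. Aspm, which holds spindle poles together, had 0 counts in hypertrophic sums, against 95.8, 42.5, 0 and 211 CPM in proliferative sums, at least 147-fold lower (adjusted p = 0.00184). Its groups met at 0 through proliferative animal E, one of the shallowest sums. Both calls were lost without P2 animal D or P2 animal G.

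Cdk1, the kinase that starts mitosis, had 0 hypertrophic counts, against 61.6, 98.6, 6.78 and 53.8 CPM in proliferative sums, at least 55.3-fold lower (adjusted p = 0.0251). Its partner Ccna2 also had 0 hypertrophic counts, against 27.4, 64.3, 0 and 17.8 CPM in proliferative sums, at least 24.5-fold lower (adjusted p = 0.0441). For Cdk1 all 4 proliferative sums were above 0, and for Ccna2 animal E was not. Cyclin B1 (Ccnb1), which triggers entry into mitosis with Cdk1, was too low to be tested: it had 0 hypertrophic counts, against 0, 6.23, 0 and 7.37 CPM in proliferative sums, at least 5.92-fold lower over the group. The Cdk1 call was lost without P2 animal A, D or G, and the Ccna2 call without any 1 of these or without P28 animal A or B. The Ccna2 call was also lost without P28 proliferative replicate 9.

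Birc5, part of the complex that corrects chromosome attachment, had 0 hypertrophic counts, against 27.4, 65.4, 13.6 and 69.4 CPM in proliferative sums, at least 58.3-fold lower (adjusted p = 0.0276). Cenpf, which binds kinetochores, had 0 hypertrophic counts, against 95.8, 43.6, 0 and 59.3 CPM, at least 49.2-fold lower (adjusted p = 0.0115). The kinesin Kif23 of the central spindle had 0 hypertrophic counts, against 34.2, 45.7, 13.6 and 61.7 CPM in proliferative sums, at least 49.8-fold lower (adjusted p = 0.0323). Birc5 and Kif23 were above 0 in every proliferative sum, while Cenpf was at 0 in animal E. Prc1, which bundles the microtubules between separating chromosomes, had 0, 0, 0 and 0.478 CPM in hypertrophic sums, against 109, 86.1, 0 and 55.9 CPM in proliferative sums, a log2 change of -7.23 ± 2.04 (SE, adjusted p = 0.0267). These 4 calls were lost without P2 animal A, D or G, and those of Birc5, Kif23 and Prc1 also without P28 animal B.

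These bounds pool the counts of a group, so they rest on P2 animal G, the deepest animal in both zones. Without it they were 19.55-fold for Mki67, 16.16-fold for Cdk1, 10.62-fold for Birc5, 10.16-fold for Ccna2, 8.62-fold for Cenpf, 8.47-fold for Aspm and 7.85-fold for Kif23. The bound of Ccna2 was 13.21-fold without P2 animal D.

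The S phase genes were low in the same sums but scattered. Mcm5, a helicase subunit, had 0 hypertrophic counts, against 54.7, 28.02, 0 and 0.614 CPM in proliferative sums, at least 7.31-fold lower without passing the test. Rrm2, the regulated subunit of ribonucleotide reductase, had 0, 202, 0 and 0.478 CPM in hypertrophic sums, against 0, 39.4, 129 and 4.91 CPM in proliferative sums. The 202 CPM of Rrm2 in animal C comes from a sum with 20032 remaining counts, and the groups overlap. Pcna, the sliding clamp of the replication fork, had 19.0, 43.3, 0 and 3.82 CPM in hypertrophic sums, against 0, 7.26, 0 and 0 CPM in proliferative sums, a log2 change of 1.99 that did not pass. Pcna shares its sequence with annotated pseudogenes, so its counts are uncertain. The G1 cyclins were also low: Ccnd1 had 0, 0, 4.93 and 0.478 CPM in hypertrophic sums, against 6.84, 61.2, 13.6 and 76.2 CPM in proliferative sums, which did not overlap, a pooled ratio of 0.016 with an interval of 0.003 to 0.048. It did not pass the adjusted threshold. Ccne1, the cyclin of the step into S phase, had 0, 0, 14.8 and 14.3 CPM in hypertrophic and 0, 16.6, 6.78 and 26.1 CPM in proliferative sums, which overlapped.

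**Figure D2:**
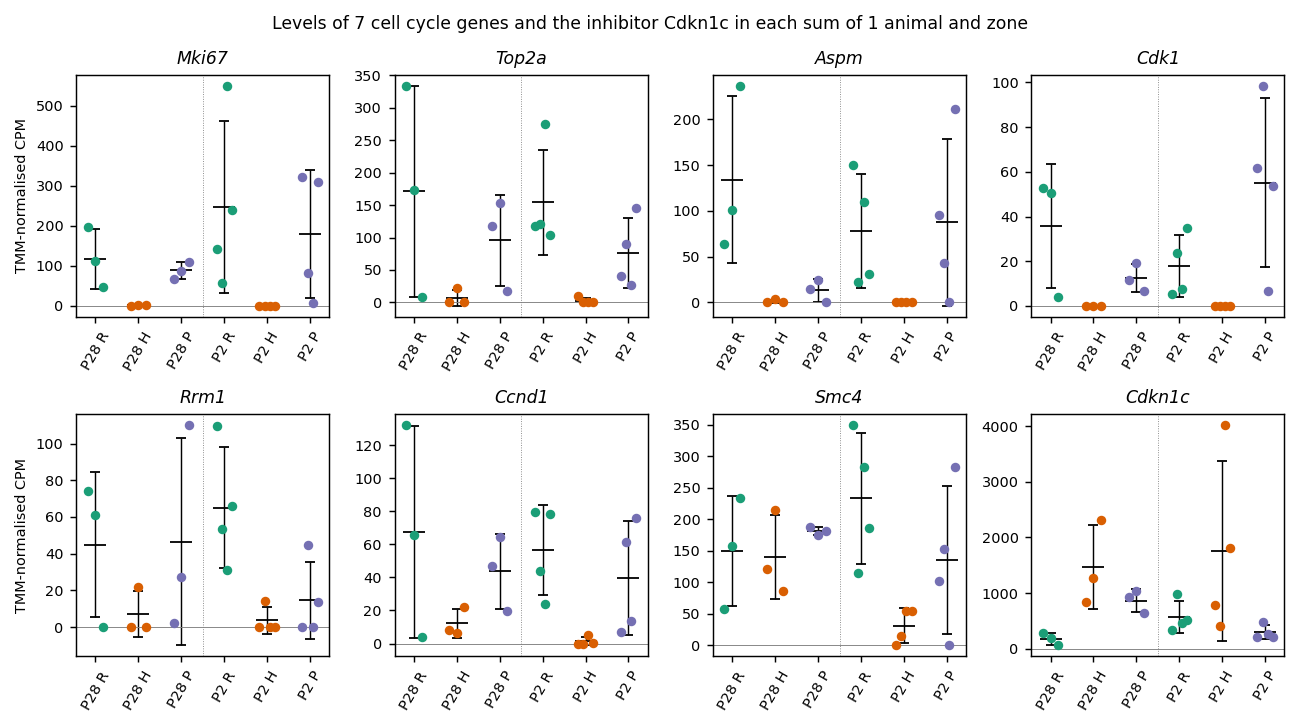
TMM-normalised CPM of 7 cell cycle genes and the inhibitor Cdkn1c on linear axes, each point 1 sum of an animal and zone (R resting, H hypertrophic, P proliferative), with the mean and 1 SD. Mki67 is at 0 in all 4 P2 hypertrophic sums, Smc4 stays at 86.4 to 215 CPM in P28 hypertrophic sums, and Cdkn1c is lowest in P28 resting sums.

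The few mitosis counts left in hypertrophic sums were shared out among the genes differently from those in proliferative sums, as a description without a test. Genes in this paragraph were singled out after their values were seen. The condensin subunit Smc4, which compacts chromosomes, made up 22 of 34 mitosis counts (64.7%) in P2 animal D and 113 of 210 (53.8%) in P2 animal G, beside 148 of 1341 (11.0%) and 920 of 6863 (13.4%) in the proliferative sums of these animals. At P28 it made up 57.7%, 58.5% and 67.3% of the hypertrophic mitosis counts of animals A, B and D, beside 21.8%, 16.1% and 23.0% of their proliferative ones. Smc4 had 0, 14.4, 54.2 and 53.99 CPM in P2 hypertrophic sums, against 103, 154, 0 and 283 CPM in proliferative sums, a log2 change of -2.22 ± 0.99 (SE, adjusted p = 0.252). At P28 it had 120.5, 215 and 86.4 CPM in hypertrophic sums, against 188, 175 and 181 CPM in proliferative sums, a log2 change of -0.43 ± 0.94 (95% interval -2.27 to 1.41, adjusted p = 0.922). Per kilobase of exon (mean ± SD, n = 3 sums a zone), the P28 level of Smc4 was 27.0 ± 12.8 CPM in the hypertrophic and 34.9 ± 1.22 CPM in the proliferative zone, while that of Mki67 was 0.185 ± 0.164 CPM in the hypertrophic and 8.83 ± 2.09 CPM in the proliferative zone. In P2 animal A the hypertrophic counts lay on other genes, with 18 of the kinesin Kif11, 16 of the checkpoint kinase Bub1 and 8 of Ncapg among 54, and in P2 animal C 4 of 7 were of Bub1.

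Markers of hypertrophic cartilage moved with the zone labels. In P2 hypertrophic sums, the prehypertrophic and hypertrophic markers together took 32798 to 98644 CPM of the remaining counts, against 1556 to 3049 CPM in proliferative sums, with 8 or 9 of 10 markers found against 4 to 9. Red blood cell markers took 30.6 to 2546 CPM of the remaining counts in hypertrophic and 0 to 58.4 CPM in proliferative sums, and white blood cell markers 0 to 199.7 CPM and 9.49 to 314 CPM. The 1 tested red blood cell marker passed as higher in the hypertrophic zone, by 4.47 on the log2 scale. Osteoblast and osteocyte markers took 49.9 to 225 CPM in hypertrophic and 0 to 565 CPM in proliferative sums, and the 1 tested, Phex, was higher in the hypertrophic zone by 7.29 on the log2 scale. The 17 genes at 0 had no count in any of these hypertrophic sums, and the part of other cell types in the other values was not tested. With libraries required to hold 50000 remaining counts, 4 cell cycle genes passed in place of 9. Without P2 animal D or without P2 animal G, 1 passed, Mki67.

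Next to the hypertrophic zone, the resting zone at P2 was higher in 9 of the 45 tested genes and lower in 0, beside 2.08% of 6958 genes higher and 1.68% lower (edgeR quasi-likelihood test, Benjamini-Hochberg). This comparison shares its hypertrophic sums with the one above. Perichondrium and fibroblast markers moved with it, at 1547 to 11009 CPM of the remaining counts in resting sums (5 to 7 of 7 markers found), against 83.2 to 5641 CPM in hypertrophic sums (3 to 5 found), with 2 of 4 tested markers higher and 0 lower. Of the markers of other cells, the 1 tested of osteoblasts and the 1 tested of red blood cells were lower in the resting zone, by 6.57 and 5.46 on the log2 scale. So were 7 of 8 tested prehypertrophic and hypertrophic markers. The part of all these markers in the cell cycle values was not tested. The 9 were Mki67, Top2a, Aspm, Birc5, Kif23, Ccna2 and Cenpf of mitosis, and Rrm1 and Hells of S phase. The median log2 change was 5.44, or 4.12 with the 17 genes at 0 set at their bound, beside 0.52 over all genes.

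Rrm1, the large subunit of ribonucleotide reductase, had 109, 53.6, 31.2 and 66.2 CPM in the resting sums of animals A, D, F and G, against 0, 14.4, 0 and 0 CPM in hypertrophic sums of A, C, D and G. All resting sums were above all hypertrophic ones, a log2 change of 9.24 ± 2.41 (SE, adjusted p = 0.00691) and a pooled ratio of 155 (95% counting interval 27.7 to 6141). Hells, a chromatin remodeller that acts on newly replicated DNA, had 73.8, 48.1, 15.8 and 55.5 CPM in resting sums, against 0 hypertrophic counts, at least 40.9-fold higher (adjusted p = 0.0116). These are the S phase genes that passed in any zone comparison, and in both the lowest resting sum was animal F. The hypertrophic value of Rrm1 in animal C was a single count, and both calls were lost without P2 animal D or G.

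Mki67 had 142, 56.3, 550.1 and 239 CPM in resting sums, at least 257-fold above the 0 counts of hypertrophic sums (adjusted p = 1.35e-05). Top2a had 118, 121, 275 and 104 CPM in resting sums, a log2 change of 7.15 ± 1.71 (SE, adjusted p = 0.00226) and a pooled ratio of 395 (interval 70.7 to 15599). Resting animal F was the highest sum for both genes, and no resting sum reached down to a hypertrophic one. Aspm had 150.4, 21.8, 110.2 and 30.6 CPM in resting sums, at least 47.5-fold above hypertrophic sums (adjusted p = 0.00571). Cenpf had 137, 45.4, 152 and 2.33 CPM, at least 43.3-fold higher (adjusted p = 0.0291), with animal G far below the others. Birc5 had 38.3, 19.1, 48.8 and 68.9 CPM in resting sums, at least 50.8-fold higher (adjusted p = 0.0289). Kif23 had 46.5, 35.4, 83.1 and 21.5 CPM, at least 34.6-fold higher (adjusted p = 0.038). Ccna2 had 2.73, 33.6, 60.1 and 54.9 CPM, at least 46.0-fold higher (adjusted p = 0.0487). The Ccna2 call was lost without P2 animal A, C, D or G, P28 animal A or B, or P28 proliferative replicate 9. Without P2 animal D, 1 of the cell cycle genes passed, Mki67. Without P2 animal G, whose resting library carries both Xist and Y-linked counts, 0 genes passed, and Mki67 had an adjusted p of 0.0772. Without that animal the bounds were 70.03-fold for Mki67, 22.98-fold for Cenpf, 16.98-fold for Aspm, 12.62-fold for Kif23, 8.99-fold for Ccna2, 7.52-fold for Birc5 and 6.05-fold for Hells. Without P2 animal F they were 14.28-fold for Cenpf, 31.59-fold for Aspm and 22.24-fold for Kif23.

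No cell cycle gene passed between the resting and proliferative zones. At P2, 0 of 45 tested genes passed in either direction and 0 had an unadjusted p under 0.05 (edgeR quasi-likelihood test, and DESeq2 also called 0), beside 0.259% of all genes called in either direction. The median log2 change was 0.20, beside 0.15 over all genes, and a p that misses the threshold does not show that the zones were alike. For Mki67 the change was -0.69 ± 0.98 (SE), with a 95% interval of -2.61 to 1.23.

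Within that result, the replication and mitosis genes leaned opposite ways at P2, without a test of the lean. Of the tested S phase genes 12 of 15 had a log2 change above zero in resting over proliferative sums (median 1.15), while 18 of 28 mitosis genes were below zero (median -0.48). Without P2 animal G the medians were 1.40 over 12 S phase genes and -0.06 over 22 mitosis genes, and with no replicate block the mitosis median was 0.27, on the other side of zero. Perichondrium and fibroblast markers were also higher in the resting zone, at 1547 to 11009 CPM of the remaining counts in resting sums, against 253 to 929 CPM in proliferative sums (2 to 6 of 7 found), with 2 of 4 tested markers called, and their part was not tested. All 4 deoxynucleotide supply genes were above zero, all 3 mitotic cyclin and Cdk1 genes were below it, and so were all 3 kinetochore genes. Within the 3 animals that had both zones, the summed S phase level in resting over proliferative sums was 3.11, 1.55 and 1.25 in animals A, D and G, and the summed mitosis level was 1.10, 0.70 and 0.64. In each of these animals the S phase ratio was the higher of the pair. The proliferative S phase sums below these ratios lean on single genes in 2 of the animals. In animal A, 8 of only 18 counts were of Mcm5, and in animal G 618 of 1366 were of Pola1. At P28 the ratios were 1.42, 1.34 and 0.33 for S phase and 1.56, 1.22 and 1.09 for mitosis in animals A, B and D, so the order turned in animals A and D. The P28 resting sum of animal D is not a broad signal. Of its 34 S phase counts 22 were of Rrm2, and 87.4% of its 222 mitosis counts were of Tpx2, Aspm and Smc4.

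**Figure D3:**
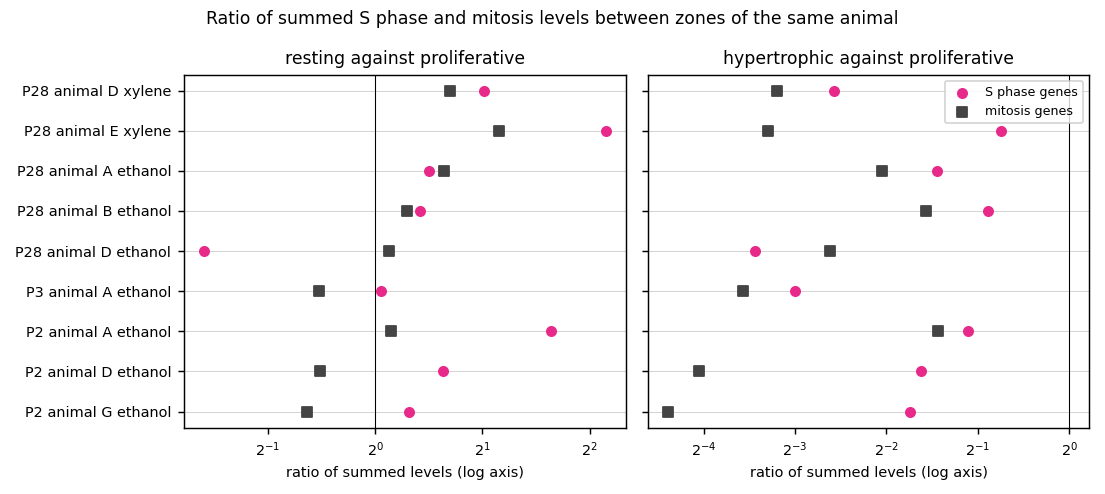
Ratio of the summed level of the S phase genes (circles) and mitosis genes (squares) between zones of the same animal, on a log axis, with resting over proliferative on the left and hypertrophic over proliferative on the right. Ethanol P28 and P2 sums use TMM-normalised CPM, and xylene and P3 sums use CPM of the remaining counts. Every hypertrophic ratio is below 1, and the resting ratios lie on both sides of it.

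At P28 fewer genes passed. Against the proliferative zone, the hypertrophic zone was lower in 1 of 45 tested genes, Mki67, and higher in 0, beside 0.546% of 6958 genes higher and 0.575% lower, with 18 of the 45 at an unadjusted p under 0.05. Mki67 had 0, 3.12 and 2.47 CPM in the hypertrophic sums of animals A, B and D, against 68.2, 88.2 and 110.2 CPM in proliferative sums. The groups were far apart, at 2 counts against 158, with a log2 change of -5.20 ± 1.36 (SE, adjusted p = 0.0165) and a pooled ratio of 0.026 (interval 0.003 to 0.097). The call was lost without any 1 of the 3 P28 animals, and it held without proliferative replicate 9 of animal D. Osteoblast and osteocyte markers moved with this comparison, at 189 to 1248 CPM of the remaining counts in hypertrophic sums (2 or 3 of 6 found), against 0 to 93.0 CPM in proliferative sums (0 to 3 found). The 1 tested, Phex, was higher by 5.97 on the log2 scale, Bglap, Bglap2 and Dmp1 had no count in these hypertrophic sums, and the part of these markers was not tested. The median log2 change of the tested genes was -3.66, or -2.21 with the 16 genes at 0 set at their bound, beside -0.52 over all genes.

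Ccna2 was at 0 counts in P28 hypertrophic sums, against 23.5, 13.6 and 188 CPM in proliferative sums, at least 17.4-fold lower but not past the threshold (adjusted p = 0.103). Its highest value, in animal D, comes from a sum with 87 counts of the gene, of which 35 were left without replicate 9 (adjusted p = 0.143 without it). Cdk1 was at 0 counts in hypertrophic sums, against 11.8, 19.2 and 6.48 CPM in proliferative sums. Birc5 was likewise at 0, against 16.5, 32.8 and 2.16 CPM, and so was Ccnb1, against 4.70, 15.8 and 6.48 CPM. Top2a had 0, 21.8 and 0 CPM in hypertrophic sums, against 118, 153 and 17.3 CPM in proliferative sums, which overlapped through animal B. Prc1, by contrast, had 40.2, 24.97 and 0 CPM in hypertrophic sums, against 49.4, 63.3 and 10.8 CPM in proliferative sums. In all, 23 of the 54 genes were at 0 in every P28 hypertrophic sum, 16 of the 45 tested (35.6%) beside 9.7% of all genes tested. As at P2, the genes behind these shares were not matched for level.

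The resting zone at P28 was higher than the hypertrophic zone in 2 of 45 tested genes, Mki67 and Aspm, and lower in 0, beside 0.546% of genes higher and 1.22% lower. Mki67 had 196, 112 and 46.6 CPM in resting sums, a log2 change of 5.49 ± 1.38 (SE, adjusted p = 0.0092) and a pooled ratio of 46.9 (interval 12.5 to 395). Aspm had 63.5, 101 and 237 CPM in resting sums, against 0, 3.12 and 0 CPM in hypertrophic sums, a log2 change of 7.05 ± 1.89 (SE, adjusted p = 0.0175) and a pooled ratio of 123 (interval 21.5 to 4905). For both genes every resting sum was above every hypertrophic sum. The Aspm call was lost without any 1 of the 3 animals, and that of Mki67 without animal A or B. In the P28 resting sums the hypertrophic markers took 1533 to 23203 CPM of the remaining counts, and in hypertrophic sums 87653 to 176316 CPM, and their part was not tested.

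Between the resting and proliferative zones at P28, 0 of 45 tested genes passed (2 at an unadjusted p under 0.05, and DESeq2 also called 0), beside 0.561% of all genes in either direction. The median log2 change was -0.28 beside -0.81 over all genes, and with size factors in place of TMM it was 0.31 beside -0.24, so no direction is given. Rrm1 had 74.1, 60.9 and 0 CPM in resting and 2.35, 27.1 and 110.2 CPM in proliferative sums. Pcna was at 0 counts in resting sums, against 7.05, 21.5 and 71.3 CPM in proliferative sums. Mcm5 had 0, 45.6 and 0 CPM in resting and 14.1, 23.8 and 58.3 CPM in proliferative sums, and both Rrm1 and Mcm5 overlapped between the zones.

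**Figure D4:**
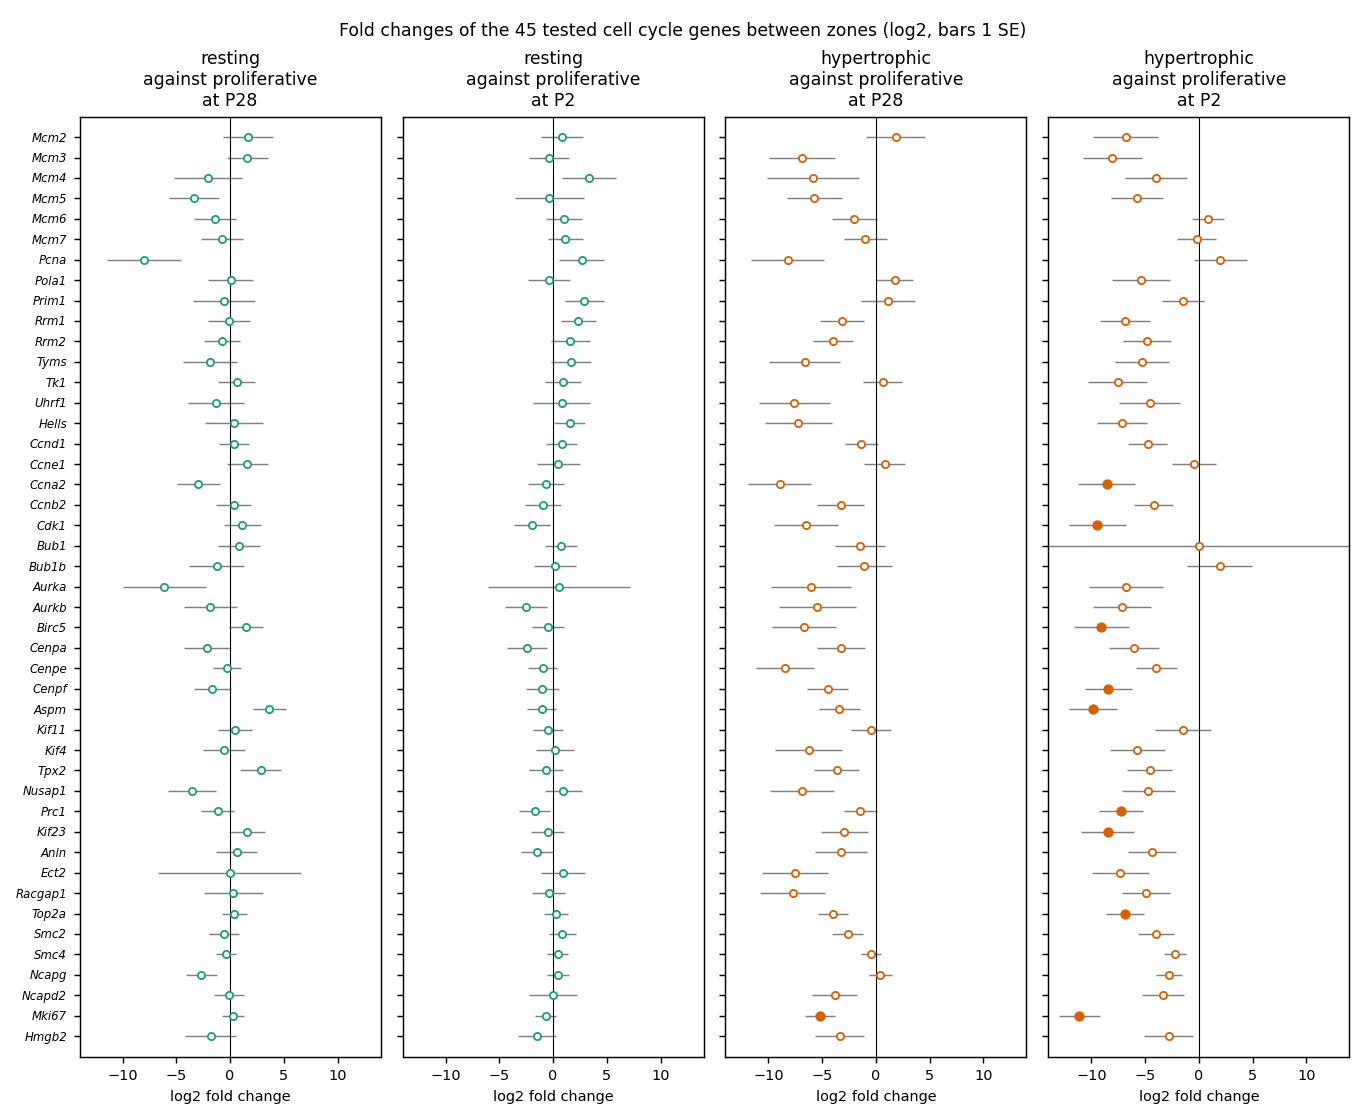
Log2 fold changes of the 45 tested cell cycle genes for resting and hypertrophic over proliferative sums at P28 and P2, with bars of 1 SE and filled points for genes past an adjusted p of 0.05. Points for hypertrophic sums lie mostly below zero, with 9 filled at P2 and 1 at P28, and points for resting sums lie around zero with none filled; the bar of Bub1 at P2 runs past the axis. Genes at 0 counts in a zone have fitted changes that depend on the prior count.

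**Figure D5:**
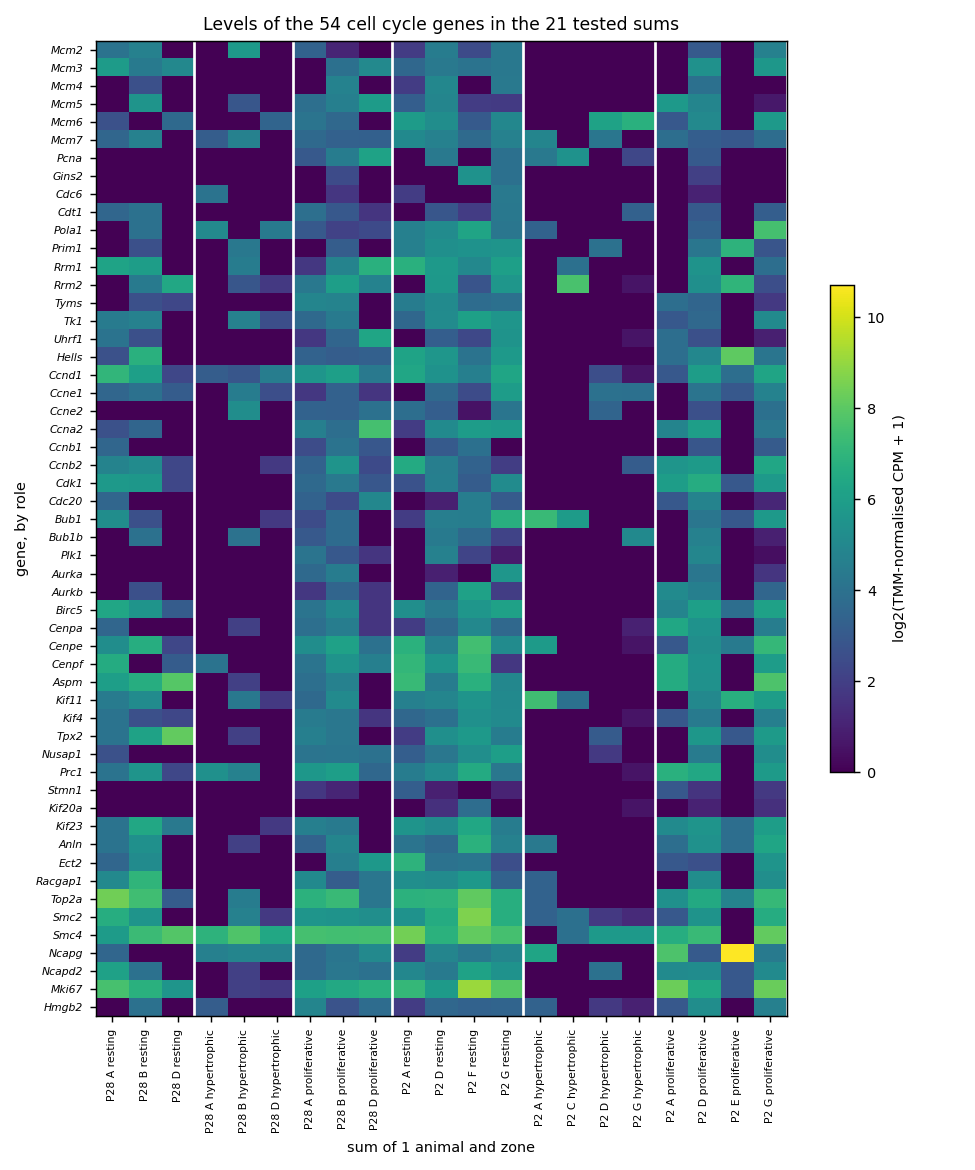
Level of each of the 54 genes, as log2(TMM-normalised CPM + 1), in the 21 tested sums, with white lines between groups. The hypertrophic columns hold 9 to 23 detected genes a sum at P28 and 7 to 17 at P2, against 36 to 53 and 18 to 54 in proliferative columns; Smc4 is one of the few rows filled in most hypertrophic columns.

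No cell cycle gene passed between the ages in any zone. In the resting zone 28 genes could be tested for P28 over P2, and 0 passed (1 at an unadjusted p under 0.05), beside 0.872% of 3327 genes. In the proliferative zone 32 were tested and 0 passed (1 unadjusted), beside 0.679% of 4712 genes, and in the hypertrophic zone Smc4 alone could be tested, at 2.11 ± 1.16 (SE), beside 0.102% of 1963 genes called. The gene with an unadjusted p under 0.05 was the primase Prim1 in the resting zone (-4.31 ± 2.02) and Hells in the proliferative zone (-3.00 ± 1.53), where Hells had 9.40, 7.92 and 8.64 CPM at P28, against 13.7, 30.1, 264 and 16.9 CPM at P2. The test of whether the hypertrophic drop differed between ages called 0 cell cycle genes and 0 of 6958 genes, with 8 cell cycle genes at an unadjusted p under 0.05, and DESeq2 called 1, Rrm1, among 34 higher and 40 lower of all genes. For Mki67 the drop was smaller at P28 by 5.91 ± 2.45 on the log2 scale (adjusted p = 0.735), a value that rests on the fitted change from 0 counts at P2. For resting over proliferative, 0 cell cycle genes differed between ages (2 unadjusted, 0 by DESeq2), beside 0.144% of genes.

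Some of the genes stayed near the floor. The microtubule regulator Stmn1 never exceeded 8.20 CPM in any of the 21 sums, and was at 0 throughout the P28 resting, P28 hypertrophic and P2 hypertrophic sums. GENCODE M21 annotates a related sequence of Stmn1 and pseudogenes of Pcna, Tyms, Ccnb1, Ccnb2 and Kif4, so the counts of these 6 genes are uncertain where reads could fall on both copies. The chromatin protein Hmgb2 had 9.49, 0, 2.46 and 0.956 CPM in P2 hypertrophic sums, against 6.84, 37.4, 0 and 24.3 CPM in proliferative sums, which overlapped.

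The xylene-fixed P28 sections and the P3 animal were deep but were not tested here, and their levels are CPM of the remaining counts. In xylene sections the mitosis genes of animals D and E together were 0.109 and 0.102 times as high in hypertrophic as in proliferative sums. In animal D 54 of 54 genes were lower in the hypertrophic sum, and in animal E 46 were lower and 5 higher. Mki67 had 525 and 282 CPM in the resting, 22.2 and 1.16 in the hypertrophic, and 518 and 89.7 in the proliferative sums of animals D and E. The hypertrophic sum was the lowest in both animals. The hypertrophic sum of animal D also held 93313 CPM of perichondrium and fibroblast markers, against 513 CPM in animal E, and a library in it held 31 Xist beside 870 Y-linked counts; the part of these in its values was not tested. Smc4 was 953 and 727 CPM in resting, 153 and 37.7 in hypertrophic, and 790 and 495 in proliferative sums. Resting over proliferative, the S phase genes were 2.02 and 4.43 times and the mitosis genes 1.63 and 2.23 times as high, so both were higher in the resting zone of both animals, as a description of 2 animals. Animal D has the same label as animal D of the ethanol sums. In ethanol its ratios, on the TMM scale, were 0.33 for S phase and 1.09 for mitosis, so the S phase genes went the other way. These ratios depend on the scale. As CPM of the remaining counts, its ethanol resting and proliferative sums had 238 and 492 for S phase and 1554 and 970 for mitosis.

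At P3, the mitosis genes were 0.0844 times as high in the hypertrophic as in the proliferative sum, and 51 of 54 genes were lower. Mki67 had 669 CPM in the resting, 1.21 in the hypertrophic and 637 in the proliferative sum, and Smc4 had 499, 302 and 1001. The resting zone was at 1.04 times the proliferative level for S phase genes and 0.69 times for mitosis genes, with the S phase ratio higher as in the P2 animals. The P3 proliferative library is the one with 355 Xist and 311 Y-linked counts.

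Beyond the 54 genes, 135 of 137 other listed genes of replication, mitosis and G1 control were in the table and 83 were tested. In the hypertrophic over the proliferative zone at P2, 5 were lower and 1 higher, beside 1.18% of all 6958 genes lower and 1.14% higher. The lower ones were Dbf4, which activates the kinase of origin firing, the spindle proteins Hmmr, Ckap2l and Knstrn, and Cdca3, a trigger of entry into mitosis. All 5 had 0 hypertrophic counts, and they were at least 114-fold (Dbf4), 90.5-fold (Hmmr), 49.97-fold (Ckap2l), 54.7-fold (Knstrn) and 32.4-fold (Cdca3) lower, with adjusted p from 0.0295 to 0.0427. These bounds too rest on P2 animal G, whose proliferative sum held 554 of 577 Dbf4 counts and 421 of 458 Hmmr counts, and without it they were 3.54-fold (Dbf4), 5.7-fold (Hmmr), 6-fold (Ckap2l), 5.08-fold (Knstrn) and 9.39-fold (Cdca3). In the resting over the hypertrophic zone at P2, 6 were higher, beside 2.08% of all genes, namely Cdca3, Hmmr, Ckap2l, the kinetochore genes Spc25 and Casc5 and the cohesin acetyltransferase Esco2. Esco2 was at least 62.2-fold higher (adjusted p = 0.0426), or 26.45-fold without P2 animal G and 25.9-fold without P2 animal F. Spc25 had 38.3, 49.0, 37.0 and 16.3 CPM in the resting sums of animals A, D, F and G, against 0, 101, 0 and 0 CPM in the hypertrophic sums of A, C, D and G. Its highest sum was thus hypertrophic animal C (7 counts), which has no resting sum here and adds nothing to the fitted change.

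The 1 higher gene in the hypertrophic over the proliferative zone at P2 was Cdkn1c. Of 7 listed inhibitors of cyclin-dependent kinases 3 were tested there, and the others of these did not pass, at log2 changes of 2.94 ± 1.29 for Cdkn1a and -1.34 ± 1.37 for Cdkn1b (SE). Cdkn2c, too low to be tested, was at 0 hypertrophic counts, at least 9.87-fold lower. Cdkn1c had 787, 404, 4021 and 1804 CPM in P2 hypertrophic sums, against 219, 479, 271 and 215 CPM in proliferative sums, with 1 hypertrophic value inside the proliferative range, a log2 change of 2.68 ± 0.67 (SE, adjusted p = 0.00726). At P28 it had 280.4, 193 and 62.2 CPM in resting sums, against 843, 1267 and 2312 CPM in hypertrophic sums, which did not overlap, a log2 change of -3.17 ± 0.72 (SE, adjusted p = 0.00192). Proliferative sums at P28 had 924, 1032 and 635 CPM, so there the resting zone was the lowest of the 3 zones. Cdkn1a had 0, 2.72, 0 and 0.179 CPM in P2 resting sums, against 28.5, 28.8, 384 and 328 CPM in hypertrophic sums, a log2 change of -8.19 ± 1.70 (SE, adjusted p = 0.000208). At P28 Cdkn1a had 169, 101 and 0 CPM in resting sums, against 48.2, 65.5 and 215 CPM in hypertrophic sums, which overlapped. In resting over proliferative sums at either age, and in hypertrophic over proliferative sums at P28, 0 of the 83 other genes passed.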

How the data were processed

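Gene counts per library were deposited by the authors as 1 table of whole-number counts, with no normalization. The tools named in the submitters' processing notes are featureCounts 1.5.3 of Subread, the aligner STAR (2.5.2b) and cutadapt, with the build mm10, and whether strand was used is not given in the sources used here. The table's 100 columns fall on 68 library titles, and the 32 pairs of columns with the same title were summed. In the 25 pairs with at least 100 comparable genes the columns agree within sampling noise (chi-square per degree of freedom 0.939 to 1.03), so each pair was counted as 1 library. Ethanol libraries at P2 and P28 with at least 100000 counts were summed per animal and zone. Animal labels that differ only in a final 1 or 2 were taken as 1 animal.

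Zone comparisons were fitted together in edgeR 4.0.16 (R 4.3.3, limma 3.58.1) with TMM scaling, filterByExpr, robust quasi-likelihood dispersions and the animal as a block, giving 6958 genes and 8 residual degrees of freedom. The labels give the animal of each library, which is where the pairing comes from, and the deviations of 18 within-animal pairs of sums correlated at -0.0036 to 0.188. Age comparisons were fitted per zone with the deposit set (libraries with or without a coded description) as a term. The test and its P-values, adjusted after Benjamini and Hochberg over all genes tested with a threshold of 0.05, are those quoted as adjusted p throughout. The SE is the fitted log2 change divided by the root of the F statistic. The fit was tested on simulated data. Separate captures of 1 animal are not separate animals, and p-values measure the spread between these sums.

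A gene at 0 in a group is given as a bound with a floor of 3 counts over the group, and at 1 to 3 counts as a pooled ratio with an exact 95% interval. Bounds and intervals cover counting error only. Motifs and windows are from RefSeq, gene coordinates and exon lengths from GENCODE M21 (GRCm38).

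The 54 genes and the other lists were chosen with earlier results of these data known. Full values were to be given for genes past the threshold in any comparison, for Mki67, Top2a, Ccnb1, Cdk1, Pcna, Mcm5, Rrm2, Ccne1, Ccnd1, Stmn1 and Hmgb2, and, among other pathway genes, for up to 10 called ones a comparison. Alternatives were RLE scaling, no filter, DESeq2 1.42.0, other depth minima, leaving out Rn45s, Lars2 and Glra2, no block, no deposit set term, each animal left out in turn and, chosen after seeing the data, leaving out P28 proliferative replicate 9. The 25 ethanol libraries under the minimum were not tested. Figures were drawn with matplotlib 3.10.9.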

Additional observations from a re-analysis of the deposited data

Results flagged for a closer look

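In groups of 4 P2 sums, 10 of 63 sets of values had 1 sum far from the others by Dixon's criterion at 95%. The criterion flags about 1 in 20 sets of independent, normally distributed values. These are sparse counts of genes read in the same sums, so the 10 are not set against that rate. In 4 of the 10 (Top2a, Rrm1 and Prc1 in hypertrophic and Pcna in proliferative sums) the other sums were all at 0, so that any count meets the criterion, and 3 of these values are a single count. No explanation was tested for any of them.

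Among hypertrophic sums, the summed mitosis level of animal A was 512.3 CPM, against 83.8 to 101 CPM in the others. Top2a in animal A was 9.49 CPM, against 0 in the others. Rrm1 in animal C was 14.4 CPM, against 0, and Rrm2 in animal C was 201.9 CPM, against 0 to 0.478 CPM. Ccnd1 in animal D was 4.93 CPM, against 0 to 0.478 CPM, and Prc1 in animal G was 0.478 CPM, against 0.

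Among resting sums, Top2a in animal F was 275 CPM, against 104 to 121 CPM in the others, and Stmn1 in animal A was 8.20 CPM, against 0 to 1.07 CPM. Among proliferative sums, Hells in animal E was 264 CPM, against 13.7 to 30.1 CPM, and Pcna in animal D was 7.26 CPM, against 0.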

How the results depend on the processing

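Of the fits of single genes under the alternatives, 1529 kept their side of the threshold, 95 fell below it and 20 rose past it. With an animal left out, the genes called between zones kept their direction. Genes that did not pass could change sign. In resting over proliferative at P2, 10 of 28 mitosis genes were above zero, against 18 of 28 with no replicate block. For hypertrophic over proliferative at P2, with 9 genes called, 4 were called with no filter on low counts, 4 with 50000 remaining counts as the minimum, and 1 to 11 with an animal left out (1 without P2 animal D or G, 3 without P2 animal A, 5 with P28 animal B left out and 11 with P28 animal D left out). For resting over hypertrophic at P2, with 9 called, the counts were 5 with no filter, 17 with DESeq2, 2 with 50000 remaining counts, and 0 to 16 with an animal left out (0 without P2 animal G, 1 without P2 animal D, 5 without P2 animal A, 16 without P28 animal D). For hypertrophic over proliferative at P28, with 1 called, they were 3 with DESeq2, 0 with a minimum of 50000 counts, 0 with no replicate block, and 0 to 1 with an animal left out (0 for each of P28 animals A, B and D, and 1 for P28 proliferative replicate 9). For resting over hypertrophic at P28, with 2 called, they were 7 with DESeq2, 0 with a minimum of 50000 counts, 1 with 50000 remaining counts, 1 with no replicate block, and 0 to 2 with an animal left out (0 for P28 animals A and B, 1 for animal D, and 2 for that replicate). The difference between ages in hypertrophic over proliferative had 1 with DESeq2 in place of 0, and P28 over P2 in the proliferative zone had 1 (Ncapg) with no deposit set term and 0 to 1 with an animal left out (1, Ncapg, without P28 animal D). With no replicate block the counts at P2 were 11 and 12, and apart from both comparisons at P28 above, leaving out the block moved no count by over 1.5 times. The cause of these changes was not tested.

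RLE in place of TMM scaling moved the median log2 change of all genes in resting over proliferative at P28 by 0.57, and the calls there were 12 higher and 6 lower in place of 10 and 29. In resting over hypertrophic at P28 they were 54 higher and 47 lower in place of 38 and 85, and at P2 in resting over proliferative 1 and 11 in place of 7 and 11. The fewest remaining counts were 20032 and 44414 in P2 hypertrophic animals C and A and 51365 and 57388 in P2 proliferative animals A and E, where 1 count is a large step in CPM.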
